A study of Mus musculus with 16 samples.

Results

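Insulin-like growth factor 1 (Igf1), the receptors Igf1r and Igf2r, and the binding proteins Igfbp2, Igfbp3, Igfbp4, Igfbp5, Igfbp6 and Igfbp7 were followed across red gastrocnemius muscle and visceral fat of mice with a muscle knockout of MyD88 and their Cre-controls. These 9 genes are 9 of the 55536 gene identifiers in the count table, matched by symbol through the GENCODE M21 annotation. Igf1 was selected on its CPM in muscle, where it differed between the genotypes, and the other 8 were chosen by their family name. The muscle genotype difference of these genes is therefore given as a description, with no test, while the fat genotype difference and the difference between tissues were tested.

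Igf1 is a secreted growth factor that binds the tyrosine kinase receptor Igf1r, which signals through insulin receptor substrates to phosphatidylinositol 3-kinase, Akt and mTOR. Igf2r, the cation-independent mannose 6-phosphate receptor, carries lysosomal enzymes and takes up Igf2 for degradation. The binding proteins hold Igf1 and Igf2 outside cells and can limit or extend their action, and Igfbp7 binds these ligands only weakly. Liver is the main source of circulating Igf1, and local Igf1 is made in muscle and fat by fibres, macrophages and other stromal cells.

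RNA of 8 female mice was sequenced, with 1 muscle and 1 fat library from each, which gives 16 libraries in 4 groups of 4. The control group was labelled Cre-Control (mice 131, 137, 138 and 11), and the knockout group Conditional MusMyD88-/- (mice 139, 958, 960 and 29). MyD88 is the adaptor of Toll-like and interleukin-1 receptors. Each mouse had a running wheel for 5 weeks before 8 days in a small cage that restricted its movement, so no group lacks this exposure. The sources used here do not give the promoter that drives Cre, the deleted part of Myd88, the strain or the age.

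The muscle libraries held 15203806 to 21747345 counts and the fat libraries 13242243 to 19114782. Levels are counts scaled to library size (CPM) after trimmed-mean (TMM) scaling of all 16 libraries together, with scaling factors of 0.615 to 0.681 in muscle and 1.34 to 1.89 in fat. Myd88 read 3.13 to 5.21 CPM in control muscle and 2.51 to 3.30 CPM in knockout muscle, and the ranges overlapped. In fat it read 9.68 to 11.7 CPM in controls against 9.68 to 11.4 CPM in knockouts. Reads outside the deleted part and from cells other than fibres would still count, so Myd88 does not check the labels closely. The summed level of 8 muscle fibre markers was 481708 to 571645 CPM in muscle and 807 to 11463 CPM in fat. Control mouse 138 had an unusual fat library: its 8 adipocyte markers summed to 4345 CPM against 17012 to 21461 CPM in the other 7 fat libraries, its 8 smooth muscle markers to 12715 CPM against at most 851 CPM, and its 5 bladder epithelium markers to 1074 CPM against at most 20.5 CPM. The genotype and tissue differences of the members that use fat are therefore given with and without this library. In whole tissue, fewer cells of a type and less RNA per cell cannot be told apart.

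The genes lie on 7 chromosomes of GRCm38, with gene spans from GENCODE M21. Igf1 (ENSMUSG00000020053) spans chr10:87858265-87937042 on the plus strand, Igf1r (ENSMUSG00000005533) chr7:67952827-68233668 on the plus strand and Igf2r (ENSMUSG00000023830) chr17:12682406-12769664 on the minus strand. Igfbp2 (ENSMUSG00000039323, chr1:72824503-72852474, plus strand) and Igfbp5 (ENSMUSG00000026185, chr1:72857932-72874884, minus strand) lie beside each other and face in opposite directions. Igfbp3 (ENSMUSG00000020427) spans chr11:7206086-7213923 on the minus strand and Igfbp4 (ENSMUSG00000017493) chr11:99041244-99054392 on the plus strand. Igfbp6 (ENSMUSG00000023046) spans chr15:102144362-102149511 on the plus strand and Igfbp7 (ENSMUSG00000036256) chr5:77349240-77408041 on the minus strand. The libraries were stranded, but the sources used here do not say whether the counting used strand. Of the genes on the opposite strand, Polr2b shares 85 exon bases with Igfbp7, while Igf1os (0 to 2 counts in muscle, 7 to 93 in fat) and Airn (162 to 298 counts in muscle, 278 to 506 in fat) share 0 exon bases with Igf1 and Igf2r.

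Promoter windows are shown for Igf1, Igfbp4, Igfbp7 and Igf2r, 4 of the genes that differed between the tissues in the same direction in all 8 mice by TMM scaling. Each holds the 250 bases before and the 50 from a RefSeq transcription start (GRCm38.p6), read 5′ to 3′ on the gene's strand, with motif matches on either strand in capitals. The TATA box was searched with the letters TATAAA, the CCAAT box by its name, the GC box with the letters GGGCGG, the E-box with the letters CACGTG and the STAT site with the letters TTCNNNGAA. The Igf1 window starts inside the GENCODE gene span.
Igf1, chr10:87860861-87861160, plus strand: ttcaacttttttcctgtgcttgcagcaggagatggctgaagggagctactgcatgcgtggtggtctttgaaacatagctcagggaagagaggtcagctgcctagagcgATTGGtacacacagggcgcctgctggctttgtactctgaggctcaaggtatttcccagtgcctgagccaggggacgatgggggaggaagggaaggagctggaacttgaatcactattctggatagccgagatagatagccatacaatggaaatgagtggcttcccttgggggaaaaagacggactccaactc
Igfbp4, chr11:99040994-99041293, plus strand: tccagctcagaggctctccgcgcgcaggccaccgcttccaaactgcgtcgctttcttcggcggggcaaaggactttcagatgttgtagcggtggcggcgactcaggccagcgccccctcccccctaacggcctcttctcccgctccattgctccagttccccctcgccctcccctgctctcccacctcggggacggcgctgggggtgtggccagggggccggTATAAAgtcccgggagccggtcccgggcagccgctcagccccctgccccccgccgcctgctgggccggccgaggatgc
Igfbp7, chr5:77407996-77408295, minus strand: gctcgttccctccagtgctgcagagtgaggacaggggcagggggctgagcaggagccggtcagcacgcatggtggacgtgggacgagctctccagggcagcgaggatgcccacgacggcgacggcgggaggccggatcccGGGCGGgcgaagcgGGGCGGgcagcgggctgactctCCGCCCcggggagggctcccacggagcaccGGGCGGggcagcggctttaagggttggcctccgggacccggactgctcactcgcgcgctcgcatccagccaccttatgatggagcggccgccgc
Igf2r, chr17:12769657-12769956, minus strand: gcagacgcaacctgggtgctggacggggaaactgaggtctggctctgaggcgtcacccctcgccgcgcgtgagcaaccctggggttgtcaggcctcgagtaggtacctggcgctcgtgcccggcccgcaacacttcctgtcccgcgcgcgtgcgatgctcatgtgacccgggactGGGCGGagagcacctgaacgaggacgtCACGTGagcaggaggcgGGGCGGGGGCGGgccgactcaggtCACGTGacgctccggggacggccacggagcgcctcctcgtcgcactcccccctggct

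The Igf1 window held 1 CCAAT box, read on the opposite strand, and was 52.3% GC with 6 CG dinucleotides. The other 3 were richer in GC, at 71.3% for Igfbp4, 73.3% for Igfbp7 and 70.7% for Igf2r. Igfbp4 held 1 TATA box, Igfbp7 4 GC boxes, and Igf2r 3 GC boxes and 2 E-boxes, which do not overlap each other. Over all 32807 RefSeq windows of this length the median GC content was 52.7% and the median number of CG dinucleotides was 7. Among the windows of all 9 genes (10 windows, since Igfbp2 has 2), a TATA box occurred in 2 genes, a CCAAT box in 2, a GC box in 4, an E-box in 2 and a STAT site in 0. The shares of all windows with each motif were 13.6%, 37.4%, 35.6%, 7.15% and 8.29%. These matches describe letters only.

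In muscle, the level of Igf1 was 21.4, 14.2, 19.6 and 18.9 CPM in control mice 131, 137, 138 and 11. It was 28.1, 30.8, 26.4 and 29.0 CPM in knockout mice 139, 958, 960 and 29. Every knockout library lay above every control library, with means of 18.5 ± 3.06 and 28.6 ± 1.84 CPM (SD, n = 4 each), from 168 to 446 reads per library. Igf1 was selected for this difference. Of the 70 ways to set 4 mice against 4, a share of 0.0286 separates the groups fully by chance. How many of all genes separate in this way was not counted. The log2 fold change, knockout over control, was 0.63 with an SE of 0.11, and it ranged from 0.52 without control mouse 137 to 0.69 without control mouse 131. The spread of Igf1 among the knockouts was narrow, with a coefficient of variation of 6.43%, against 16.5% among the controls.

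**Figure D1:**
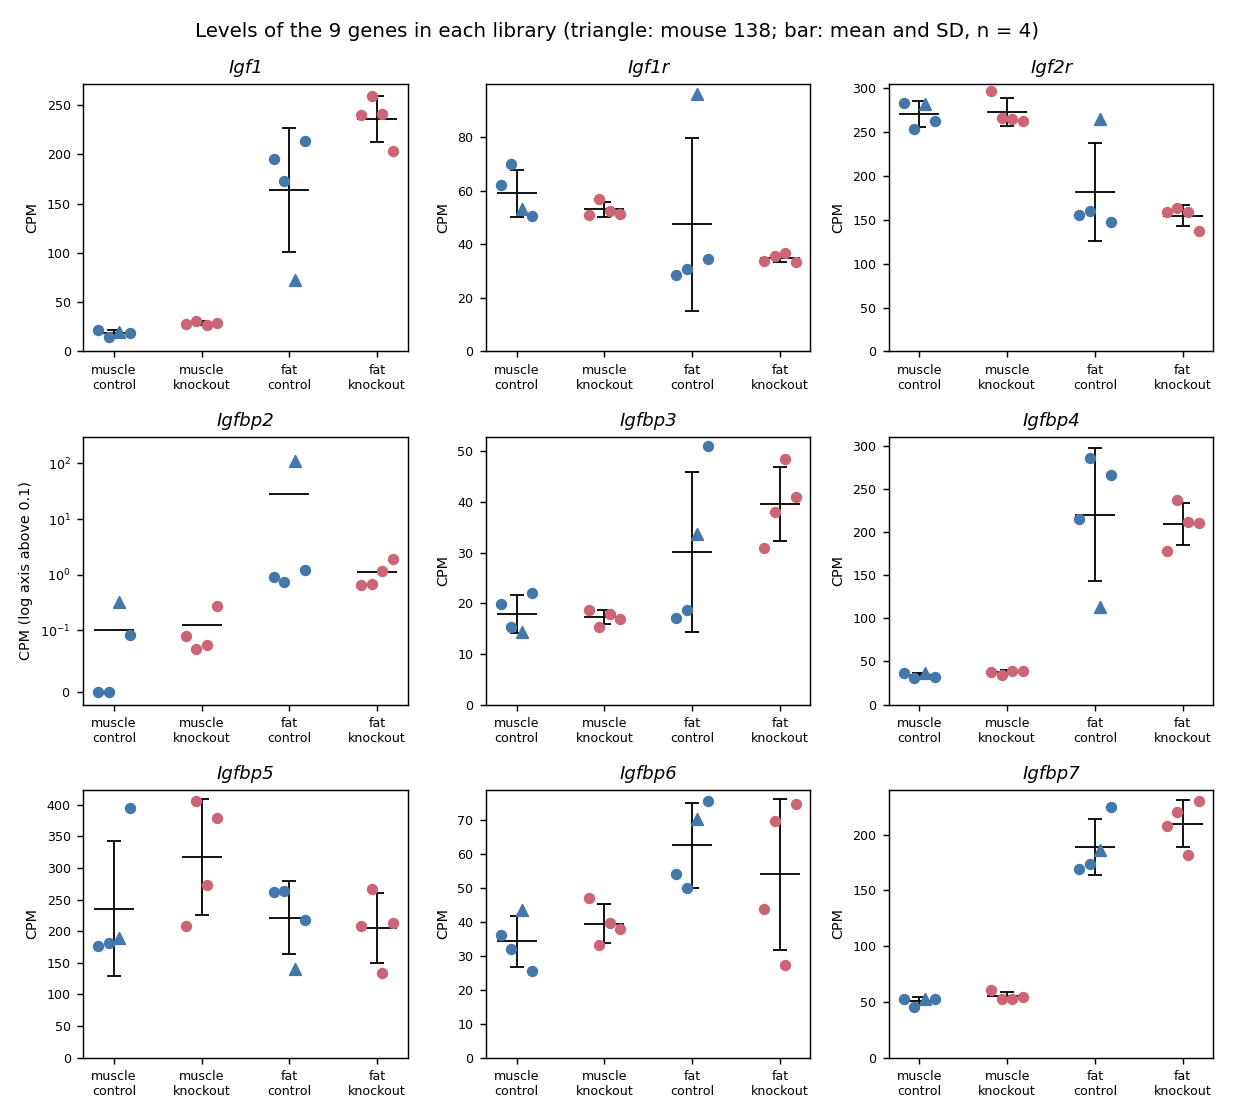
Level of each gene (vertical axis, CPM) in every library, by tissue and genotype; circles are single libraries, the triangle is control mouse 138, bars are means with SD (n = 4, mean only for Igfbp2, whose axis is logarithmic above 0.1). Igf1 in muscle separates the genotypes (14.2 to 21.4 against 26.4 to 30.8 CPM), and the fat library of mouse 138 is the lowest for Igf1 (72.5 CPM) and the highest for Igf1r, Igf2r and Igfbp2; without the TMM factors Igf1r, Igf2r and Igfbp5 come out higher in fat than in muscle.

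None of the other members separated the genotypes in muscle. Igf1r read 62.0, 69.8, 53.2 and 50.6 CPM in the controls and 50.9, 57.0, 52.5 and 51.3 CPM in the knockouts, in the order of mice given above. The knockouts lay inside the control range, and the log2 fold change was -0.16 (SE 0.10). Igf2r was nearly the same in both, at 270.5 ± 14.6 and 273 ± 16.1 CPM (SD, n = 4 each), with a log2 fold change of 0.00 (SE 0.07). Among the binding proteins, Igfbp5 showed the widest scatter: 176, 181, 189 and 395 CPM in the controls and 209, 406, 273 and 379 CPM in the knockouts. Control mouse 11 was as high as the upper knockouts, and the log2 fold change of 0.43 had an SE of 0.35. It was 0.79 without mouse 11 and 0.28 without knockout mouse 958.

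Igfbp4, which inhibits Igf1 until it is cleaved by the protease Pappa, read 30.7 to 36.6 CPM in control and 34.5 to 39.4 CPM in knockout muscle. Its log2 fold change was 0.14 (SE 0.08). The values of the log2 fold change were -0.06 (SE 0.13) for Igfbp3, the main carrier of Igf1 in blood, 0.19 (SE 0.14) for Igfbp6, which prefers Igf2, and 0.10 (SE 0.08) for Igfbp7. Igfbp2 had 0, 0, 4 and 1 reads in control and 1, 1, 1 and 4 reads in knockout muscle, too few for the filter on low counts. For the background, 0.0141% of the 14183 genes tested in muscle passed an adjusted p of 0.05 in edgeR (2 genes).

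Igf1 was set against the binding proteins per kilobase of merged exon. For every 100 units of the 6 binding proteins summed, control muscle held 1.80, 1.32, 1.55 and 1.30 units of Igf1. Knockout muscle held 2.00, 2.02, 1.91 and 1.87 units, all above the controls. This ratio contains the contrast that chose Igf1 and has no test.

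The summed markers of the cell types below overlapped between the genotypes in muscle, with no gene called. Over all genes tested there, 50.8% had a log2 fold change above 0. All 13 macrophage markers had a higher mean in the knockouts, with a summed level of 101 to 158 CPM in controls against 152 to 198 CPM in knockouts, and all were detected apart from Fcgr1, which was at 0 in some libraries. The 12 fibroblast and fibro-adipogenic progenitor markers were also all higher in mean, at 880.2 to 1208 CPM in controls against 1052 to 1389 CPM in knockouts. Neither list had a gene that passed the test, with 11 and 12 of them tested. The 8 endothelial markers were all higher in mean too (416 to 512 against 479 to 515 CPM). Of the adipocyte markers 6 of 8 had a higher mean in the knockouts, and of the satellite cell markers 3 of 4. Only 1 of 8 smooth muscle markers and 2 of 8 muscle fibre markers did. All 4 liver markers, of which 1 was tested, had a higher mean in the knockouts, from low levels. They summed to 1.71, 0.169, 8.50 and 0.186 CPM in controls. In knockouts the sums were 0.366, 0.346, 2.73 and 20.3 CPM, with the highest in mouse 29. The part of these cells in the Igf1 difference was not tested.

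**Figure D2:**
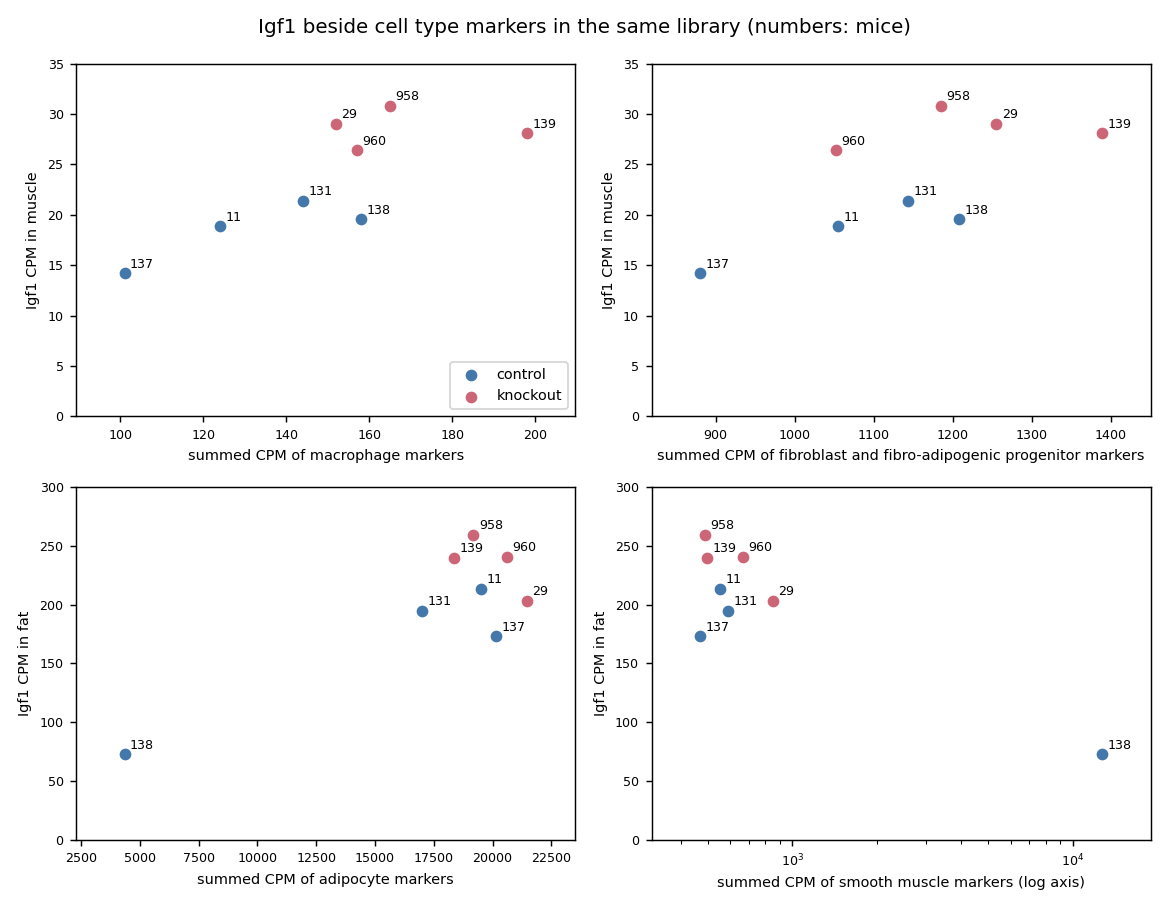
Igf1 level (vertical axes, CPM) against the summed CPM of cell type markers (horizontal axes; logarithmic for smooth muscle) in the same library, with muscle above and fat below; each point is 1 library, labelled by mouse and coloured by genotype. In muscle the marker sums of the genotypes overlap. Igf1 was selected because it differed there, so its separation is not a contrast to these sums. The part of these cells in the Igf1 level was not tested. In fat mouse 138 stands alone at 4345 CPM of adipocyte and 12715 CPM of smooth muscle markers.

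Across the 8 muscle libraries, the genes whose log2 level was nearest to that of Igf1 among 9455 searched were Slc29a1 (Pearson r 0.97), a nucleoside transporter, Rcn3 (0.96), Crispld2 (0.95), Pltp (0.94), the phospholipid transfer protein, and C1qb (0.93), a complement component made by macrophages. The points share library depth and genotype, and Igf1 was selected for its genotype difference. With 8 libraries and so many genes searched, high r values also arise by chance in either tissue. These relations were not tested. In fat the nearest of 10059 genes were Agtr1a, Fkbp15, Chml and Cp (0.99 each) and Rcbtb2 (0.98). Mouse 138 is at one end of these relations, and without it r was 0.91, 0.97, 0.95, 0.86 and 0.85.

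In fat, Igf1 read 195, 173, 72.5 and 214 CPM in control mice 131, 137, 138 and 11 and 239.9, 259.5, 241 and 203 CPM in knockout mice 139, 958, 960 and 29. Mouse 138 was far below the rest, and knockout mouse 29 lay below control mouse 11, so the groups overlapped. The means were 163 ± 62.8 and 236 ± 23.5 CPM (SD, n = 4 each). The log2 fold change of 0.53 (SE 0.30) did not pass the test (adjusted p 0.651, edgeR; exact two-sided permutation p 0.0571, where 0.0286 is the smallest that 4 mice against 4 can give). Without mouse 138 the control mean was 194 ± 20.3 CPM (SD, n = 3) and the log2 fold change was 0.29 (SE 0.10; edgeR p 0.0227, adjusted 0.239). The genotype difference of Igf1 in fat minus that in muscle was -0.10 (SE 0.34) on the log2 scale, and -0.38 (SE 0.17) without mouse 138. This difference contains the contrast that chose Igf1 and has no test.

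None of the 9 genes differed between the genotypes in fat by edgeR (0 of 9 with an adjusted p under 0.05). Of all 16323 genes tested there 0.00613% passed (1 gene), and 1305 genes, or 7.99%, had an unadjusted p under 0.05. Of the 9, only Igfbp2 had an unadjusted edgeR p under 0.05 (0.0311) with all 8 libraries. Without mouse 138, Igf1 (0.0227) and Igfbp4 (0.0432, lower in the knockouts) had one. So did 2746 of all 16579 genes tested in that setting, or 16.6%. DESeq2 and limma voom likewise called 0 of the 9 genes, with and without mouse 138, though DESeq2 gave Igfbp2 no adjusted p with all 8 libraries. Counts simulated with the spread of these libraries gave a call for 31% of genes changed 2-fold and for 74% of genes changed 4-fold. They were drawn independently for each gene and hold no library of unlike make-up such as mouse 138. The rates may therefore not carry over to the real libraries, and a p above the threshold does not show equal levels.

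The receptors in fat turned on mouse 138. Igf1r read 28.3, 30.7, 95.8 and 34.5 CPM in the controls and 33.9, 35.6, 36.6 and 33.5 CPM in the knockouts. With mouse 138 the log2 fold change was -0.45 (SE 0.39, adjusted p 0.740), and without it 0.16 (SE 0.08, adjusted p 0.341). Igf2r read 155.5, 159.8, 265 and 147 CPM in the controls and 159, 164, 159 and 137 CPM in the knockouts. Its log2 fold change moved from -0.24 (SE 0.21, adjusted p 0.739) to 0.01 (SE 0.08, adjusted p 0.981) without that library. The other 7 fat libraries spanned 28.3 to 36.6 CPM for Igf1r and 137 to 164 CPM for Igf2r.

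Igfbp2, a binding protein that adipose and epithelial cells can secrete, was near the detection limit in 7 fat libraries, at 14 to 48 reads, and had 2694 reads in mouse 138. That is 109.5 CPM, against 0.897, 0.737 and 1.20 CPM in the other controls and 0.659, 0.673, 1.17 and 1.94 CPM in the knockouts. The log2 fold change of -4.65 (SE 1.79, adjusted p 0.618) became 0.25 (SE 0.40, adjusted p 0.779) without mouse 138. The same library was high for smooth muscle markers (Myh11 at 5498 CPM in mouse 138, 74.3 to 248 CPM elsewhere in fat) and for bladder markers (Upk1a at 290.4 CPM, at most 1.68 CPM elsewhere). This joint rise rests on 1 library. The part of such tissue in the Igfbp2 reads was not tested.

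The remaining binding proteins overlapped between the genotypes in fat. Igfbp3 read 17.2, 18.7, 33.7 and 51.1 CPM in controls and 30.9, 38.1, 48.4 and 41.1 CPM in knockouts, with a log2 fold change of 0.39 (SE 0.35, adjusted p 0.746), and of 0.46 (SE 0.42, adjusted p 0.624) without mouse 138. Control mice 131 and 137 were the lowest of all fat libraries and control mouse 11 the highest. Igfbp4 read 215, 285, 113 and 266 CPM in controls and 179, 237, 212 and 209.8 CPM in knockouts. Its log2 fold change was -0.07 (SE 0.27, adjusted p 0.950), and -0.29 (SE 0.12, adjusted p 0.286) without mouse 138. For Igfbp5 the log2 fold change was -0.11 (SE 0.26, adjusted p 0.916), and -0.27 (SE 0.21, adjusted p 0.547) without mouse 138. Igfbp6 was at -0.21 (SE 0.31, adjusted p 0.858), at -0.15 (SE 0.37, adjusted p 0.868) without mouse 138, and between -0.42 without knockout mouse 29 and 0.00 without knockout mouse 960. Igfbp7 was at 0.15 (SE 0.14, adjusted p 0.751) with that library and at 0.15 (SE 0.12, adjusted p 0.562) without it.

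In fat, 11 of the 13 macrophage markers and 10 of the 12 fibroblast markers had a lower mean in the knockouts, with sums of 462 to 870.4 against 467 to 811 CPM and of 2752 to 4895 against 1749 to 3038 CPM. Without mouse 138 these were 12 of 13 and 9 of 12. The sums overlapped and 0 genes of either list passed the test in fat, so no direction is set. Over all genes tested in fat, 47.9% had a log2 fold change above 0. All 8 endothelial and all 4 liver markers had a higher mean in the knockouts in fat. Without mouse 138 this held for 5 of 8 and 4 of 4. The liver sums in fat were 66.7, 53.1, 9.96 and 172 CPM in controls and 43.3, 31.9, 177 and 319 CPM in knockouts. They overlapped as well, and 0 endothelial or liver markers were called. Of the adipocyte markers in fat, 7 of 8 were higher, and 3 of 8 without mouse 138. The part of any of these cells in the Igf1 level was not tested.

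**Figure D3:**
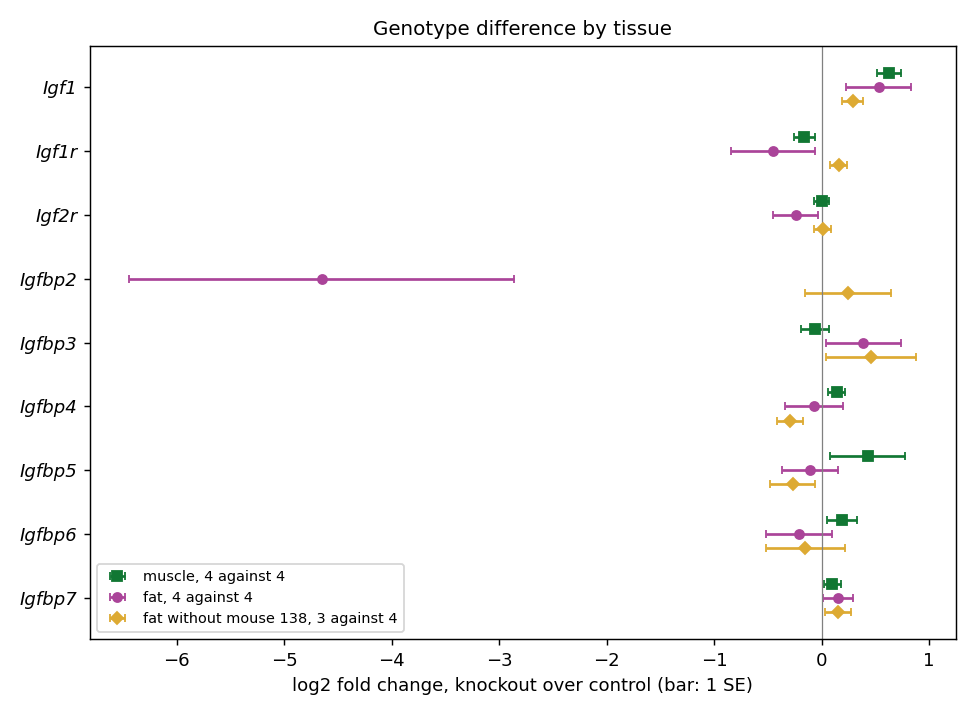
Genotype difference of each gene (horizontal axis, log2 fold change, knockout over control, bars of 1 SE) in muscle (squares), fat (circles) and fat without mouse 138 (diamonds); Igfbp2 had too few reads in muscle. Igf1 lies at 0.63 in muscle, 0.53 in fat and 0.29 in fat without mouse 138, and the fat values of Igf1r, Igf2r and Igfbp2 change sign when that library is left out.

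The tissues differed far more than the genotypes. Igfbp2 was kept by the filter on low counts through fat alone, so its call between tissues is not counted. It was high there only in mouse 138, and the other fat libraries held 14 to 48 reads. Of the other 8 genes, 6 passed the test between fat and muscle, 5 of them higher in fat and Igf2r higher in muscle by TMM scaling but higher in fat by total counts. Over the 17084 genes tested, 79.6% passed, with 44.0% higher in fat and 35.7% higher in muscle. A call between tissues is thus the common case, and the size of each difference says more. The median log2 difference of all genes, fat over muscle, was 0.16 with TMM scaling and 1.36 with total counts, and 55.2% and 87.8% of the called genes were higher in fat. Each member is therefore also placed relative to that median.

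Igf1 was 8.53-fold higher in fat, a log2 difference of 3.09 (SE 0.18, adjusted p 3.38e-10), higher in fat in 8 of 8 mice (exact sign-flip permutation p 0.00781, the smallest that 8 mice can give). It lay 2.94 above the median of all genes with TMM scaling and 2.91 above it with total counts, and 6.14% of genes had a larger difference. The smallest difference within a mouse was 1.86, in mouse 138, and the largest 3.56. Without mouse 138 the log2 difference was 3.23.

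Igfbp4 was 6.0-fold higher in fat (log2 difference 2.59, SE 0.15, adjusted p 2.86e-10), at 30.7 to 39.4 CPM in muscle and 113 to 285 CPM in fat. Igfbp7, abundant in vessels and stroma, was 3.75-fold higher in fat (log2 difference 1.91, SE 0.08, adjusted p 3.75e-12), at 45.9 to 60.6 CPM in muscle and 169.6 to 230.2 CPM in fat. Both were higher in fat in 8 of 8 mice (exact sign-flip permutation p 0.00781 each). Among the members Igfbp7 had the smallest range within mice, with log2 differences of 1.67 to 2.09. Relative to the median of all genes the differences were 2.43 and 1.75. Without mouse 138 the log2 differences were 2.71 for Igfbp4 and 1.92 for Igfbp7.

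Igfbp3 was 1.97-fold higher in fat (log2 difference 0.98, SE 0.20, adjusted p 0.000366), in 7 of 8 mice (exact permutation p 0.0156), and its log2 difference was 0.90 (adjusted p 0.00454) without mouse 138. Igfbp6 was 1.58-fold higher (log2 difference 0.66, SE 0.19, adjusted p 0.00444), in 6 of 8 mice (exact permutation p 0.0391). Without mouse 138 it was 0.70 (adjusted p 0.0110), and with mice as pairs as well the call was lost (0.64, adjusted p 0.0572). Igfbp2 had 0 to 4 reads in muscle and 14 to 2694 in fat, a log2 difference of 5.46 (SE 1.43) with mouse 138 and 3.83 (SE 0.51) without it, given as a description.

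Igf2r was 1.62-fold higher in muscle with TMM scaling (log2 difference -0.69, SE 0.11, adjusted p 2.59e-05; 8 of 8 mice, exact permutation p 0.00781) but higher in fat with total counts (0.53, adjusted p 0.00339). Without mouse 138 the TMM value was -0.81. Relative to the median of all genes it was lower in fat by either scaling, at -0.85 and -0.83, and 75.9% of genes had a larger fat over muscle difference. Igf1r had a log2 difference of -0.46 (SE 0.21, adjusted p 0.0560; exact permutation p 0.0547) with TMM scaling and 0.80 (adjusted p 0.0100) with total counts. It was lower in fat in 7 of 8 mice by TMM scaling, all but mouse 138, and without mouse 138 the difference was -0.79 (adjusted p 1.48e-08). With the mouse as a replicate block it was -0.56 (adjusted p 0.0263). Igfbp5 did not pass (log2 difference -0.36, SE 0.21, adjusted p 0.137; exact permutation p 0.180), and it was -0.32 (adjusted p 0.214) without mouse 138 and 0.84 (adjusted p 0.00113) with total counts. Relative to the median, Igf1r was at -0.62 and -0.56 and Igfbp5 at -0.51 and -0.52 by the 2 scalings.

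Levels of different genes were compared only as CPM per kilobase of merged exon. In muscle the order of means rose from Igfbp2 (0.0624) through Igf1 (2.38), Igf1r (3.33), Igfbp3 (5.62), Igfbp4 (8.10), Igf2r (29.2), Igfbp6 (33.2) and Igfbp7 (44.0) to Igfbp5 (46.0). Igfbp7 and Igfbp5 followed this order in 4 of 8 libraries, so they are not set apart. In fat the order was Igf1r (2.45), Igfbp2 (7.91), Igfbp3 (11.1), Igf2r (18.1), Igf1 (20.2), Igfbp5 (35.5), Igfbp4 (48.6), Igfbp6 (52.4) and Igfbp7 (165). The place of Igfbp2 in fat rests on mouse 138, since 1 of 8 libraries had it above Igf1r. Igfbp4 and Igfbp6 followed the order in 5 of 8 libraries. Igf1 was thus near the bottom of the order in muscle and above both receptors in 7 of 8 fat libraries.

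The make-up of the binding protein transcripts differed between the tissues. In control muscle Igfbp7, Igfbp5 and Igfbp6 made up 33.8% ± 3.0, 30.4% ± 9.73 and 25.0% ± 6.42 of the summed CPM per kilobase (SD, n = 4). In control fat Igfbp7 made up 48.1% ± 2.07, Igfbp6 17.3% ± 1.85, Igfbp4 15.6% ± 5.72 and Igfbp5 11.6% ± 3.90 (SD, n = 4). Without mouse 138 the 4 means were 48.9%, 16.8%, 18.2% and 13.2%. These shares do not depend on the scaling of the libraries. The Igfbp7 share in fat was 45.7% to 50.6% in controls and 51.2% to 57.9% in knockouts, with no overlap, and the control range was 47.4% to 50.6% without mouse 138. It was the only one of the 6 shares whose genotype groups did not overlap in fat, 0 did so in muscle, and it was singled out after its values were seen, so it has no test. In fat, 6.85, 5.75, 2.18 and 5.86 units of Igf1 stood beside every 100 units of the binding proteins in controls and 8.17, 7.37, 9.31 and 5.79 in knockouts, which overlap through knockout mouse 29.

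**Figure D4:**
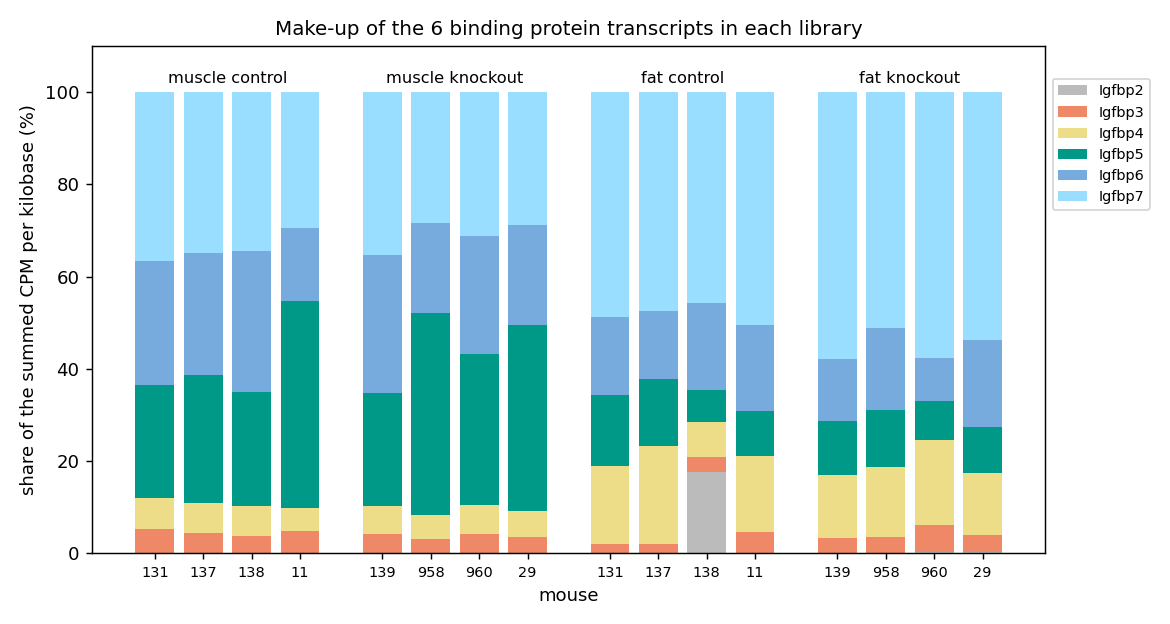
Share of each binding protein (vertical axis, percent of the summed CPM per kilobase of the 6 genes) in every library (bars, labelled by mouse), by tissue and genotype. Igfbp5 takes 24.4% to 44.8% in muscle and 6.98% to 15.2% in fat, Igfbp7 takes 45.7% to 57.9% in fat, and Igfbp2 is visible only in the fat of mouse 138 (17.6%).

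The rest of the pathway was described from 4 lists of genes, of which up to 3 with the smallest p in each comparison are named. For genotype, 0 of 2, 8, 7 and 24 genes tested in fat and 0 of 2, 7, 6 and 24 genes tested in muscle passed in the lists of other IGF genes, the growth hormone axis, the proteases of binding proteins with their inhibitors, and the signalling chain below the receptor. The median log2 fold change in muscle was 0.13, 0.03, -0.03 and -0.03 in these lists, against 0.00 over all genes. In fat it was 0.16, 0.20, -0.17 and 0.07, against -0.01, and without mouse 138 it was -0.10, 0.09, -0.25 and -0.01, against 0.01. An unadjusted edgeR p under 0.05 was reached by 2 genes in fat, both of the signalling list. In muscle 3 genes reached it, 1 of the growth hormone axis and 2 of the signalling list. Over all genes tested, 7.99% reached it in fat and 5.04% in muscle. DESeq2 and limma voom also called 0 genes of any list. Without mouse 138 edgeR called 0 genes of the lists in fat.

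Cish, a feedback gene that growth hormone and Stat5 induce, read 1.28, 2.79, 3.61 and 1.95 CPM in control muscle and 4.58, 2.90, 10.2 and 12.6 CPM in knockout muscle, with mouse 958 inside the control range. Its log2 fold change of 1.62 (SE 0.54) had an unadjusted edgeR p of 0.0189 and an adjusted p of 0.940. The next of that axis in muscle were Stat5b (-0.18, adjusted p 0.949) and Socs3 (0.36, adjusted p 0.949). Foxo1, a transcription factor that Akt keeps out of the nucleus, had a log2 fold change of -0.63 in muscle (SE 0.18, unadjusted p 0.00603, adjusted p 0.907), at 29.4 to 54.3 CPM in controls against 23.8 to 31.4 CPM in knockouts. Its relative Foxo3 (-0.23) and Pdpk1 (-0.15), the kinase that activates Akt, followed in the signalling list. Of the proteases and inhibitors, Pappa was at -0.37 in muscle, Adam12 at 0.49 and Stc2, an inhibitor of Pappa, at -0.46. Of the other IGF genes, Igfals was at 0.28 and Insr at -0.02.

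In fat the smallest p of the signalling list belonged to Irs1, the insulin receptor substrate, with a log2 fold change of 0.66 (SE 0.21, adjusted p 0.588), and of 0.50 (adjusted p 0.148) without mouse 138. Pik3r1, a regulatory subunit of phosphatidylinositol 3-kinase, was at 0.53 (0.39 without that mouse) and Sos1 at 0.20 (0.16 without it). In the growth hormone axis the values were -0.27 for Jak2 (-0.11 without it), 0.39 for Socs2 (0.65) and 0.17 for Stat5b (0.05). Stc1, another inhibitor of Pappa, was at -1.02 (-0.45 without it), Adam9 at -0.17 (-0.25) and Pappa at -0.78 (0.16, a change of sign). Insr was at 0.35 (0.22 without it) and Igfals at -0.02 (-0.42).

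Between the tissues, 1 of 2, 3 of 8, 6 of 7 and 7 of 24 genes of the lists were called higher in fat by TMM scaling. The counts called higher in muscle were 0, 3, 0 and 13. Over all genes tested, 44.0% were called higher in fat and 35.7% higher in muscle. The medians of the lists were 1.34, -0.19, 1.28 and -0.23 against 0.16 over all genes. Without mouse 138 the signalling list had 9 genes higher in fat and 11 higher in muscle, the other counts were the same, and the medians were 1.49, -0.35, 1.40 and -0.16 against 0.13. The counts higher in fat include Stc1 and a gene of the growth hormone axis that the filter on low counts kept through fat alone. As with Igfbp2, their calls carry no weight. Igf2, Igfbp1, Igfbpl1 and Insrr were at or near 0, with mean Igf2 levels of 0.167 to 0.420 CPM over the 4 groups.

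Igfals, which holds Igf1 and Igfbp3 in a stable complex in blood, was higher in fat by 2.67 on the log2 scale (SE 0.43, adjusted p 3.81e-05), and by 2.90 without mouse 138. The fat of mouse 138 was the exception, at 1.63 CPM, below every muscle library (3.13 to 6.60 CPM), while the other 7 fat libraries held 22.2 to 39.9 CPM. Insr, the insulin receptor, had a log2 difference of 0.02 (SE 0.10, adjusted p 0.864) by TMM scaling and 1.21 by total counts. Ghr, the growth hormone receptor, was higher in fat by 2.29 (SE 0.27, adjusted p 9.77e-07), with 239 CPM in the fat of mouse 138 and 1310.2 to 1620.5 CPM in the other fat libraries. Stat5b, which carries the growth hormone signal to the Igf1 gene, was lower in fat, with a log2 difference of -3.01 (SE 0.10, adjusted p 3.30e-13) by TMM scaling and -1.82 by total counts. Jak2, the kinase at the growth hormone receptor, was at -1.10 (adjusted p 3.07e-08) by TMM scaling and at 0.12 by total counts.

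Adam12, a protease that cuts Igfbp3 and Igfbp5, was higher in fat by 5.49 (SE 0.27, adjusted p 6.36e-11). Htra1, a protease of Igfbp5, was higher by 2.06 (adjusted p 2.26e-09). Stc1 was kept by the filter on low counts through fat alone, where it is high. Its difference of 2.57 (SE 0.35) is given as a description. Tsc1, which restrains mTOR, was lower in fat by either scaling, at -1.58 (adjusted p 2.79e-12) with TMM and -0.38 with total counts. The adaptor Shc1 was higher in fat by 1.39 (adjusted p 3.32e-11), and Pik3ca, the catalytic subunit of the kinase, was at -0.81 (adjusted p 1.04e-08) with TMM and 0.39 with total counts. Each of these calls, apart from the total count values, was also made without mouse 138.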

How the data were processed

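The authors deposited raw read counts of 55536 Ensembl genes in 16 libraries, 1 column per library and with no scaling, and column names gave the samples. Per the submitters' processing notes, the tools included featureCounts 1.6.3, STAR 2.7.0f and DESeq2 1.22.2, on GRCm38; the sources used here do not give their roles, the strand setting or the treatment of multi-mapped reads. GENCODE M21 held all 55536 identifiers.

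From these counts, genes were tested with edgeR 4.0.16 in R 4.3.3 (quasi-likelihood F test, robust, TMM scaling, filterByExpr), with Benjamini-Hochberg adjustment over all genes tested and a threshold of 0.05, within each tissue for genotype and over all 16 libraries for tissue. The SE was taken from F, as the size of the log2 fold change over its square root. Exact two-sided permutation tests used mean log2(CPM + 0.5), over 70 assignments of mice for genotype and 256 sign flips for tissue. Alternatives were RLE, upper quartile and no scaling, other filters, DESeq2 1.42.0, limma voom 3.58.1, all 16 libraries in 1 fit, each mouse left out, and the mouse as a block. Those without scaling and those joining mouse 138 to another choice were chosen after seeing the data. Python 3.11.15, pandas 2.3.3 and matplotlib 3.10.9 served for annotation and figures.

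Tissues of a mouse were paired through the subject labels; the correlation of a mouse's deviations in muscle and fat was -0.02 to 0.17 over 17084 genes. The p-values for genotype measure the spread between these mice. The main edgeR test between tissues treated the 16 libraries as independent, without the pairing, and only the sign flips and the mouse block used the pairs. With the mouse as a block the adjusted p between tissues was 2.23e-07 for Igf1 and 2.13e-08 for Igfbp7. Within groups, every pair of libraries differed by more than sampling noise (chi-square per degree of freedom at least 7.49). The script was tested on simulated data: in muscle (14183 genes) it called 84% of genes changed 2-fold and 93% of those changed 4-fold, with 5 false calls, and in fat (16323 genes) it made 0 false calls. The members and gene lists were chosen with earlier results of these data known. All 9 members are named in every comparison, and of each list the genes with the smallest p, up to 3 in a comparison; nearest genes by pattern are the 5 for Igf1 with the highest r.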

Additional observations from a re-analysis of the deposited data

Results flagged for a closer look

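Of the 36 groups of 4 libraries (9 genes, 4 groups), 7 held a library far from the other 3 relative to the range of its group; chance alone marks about 1 in 20 groups. In fat, control mouse 138 stood apart for Igf1r at 95.8 CPM, Igf2r at 265 CPM and Igfbp2 at 109.5 CPM, the library whose markers are described above. In muscle, control mouse 11 stood apart for Igfbp5 at 395 CPM, control mouse 137 for Igfbp7 at 45.9 CPM, knockout mouse 139 for Igf2r at 297 CPM, and knockout mouse 29 for Igfbp2 at 0.272 CPM, which is 4 reads.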

How the results depend on the processing

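The count of genes called for genotype in fat, 1 by edgeR, was 72 with DESeq2, 0 with limma voom (1243 genes at an unadjusted p under 0.05) and 6 with all 16 libraries in 1 fit; without mouse 138 it was 6 with edgeR, 330 with DESeq2 and 5 with limma voom, and leaving out each mouse gave 0 to 6. In muscle the count of 2 became 80 with no filter, 1 with the filter at 1 CPM and 9 with DESeq2, and leaving out each mouse gave 1 to 10, with 10 without knockout mouse 29. Between tissues it was 13606, and 13436 with the mouse as a replicate block, which changed the call of Igf1r and of no other member. In fat the genotype difference changed sign when a mouse was left out for Igf1r (-0.64 to 0.16), Igf2r (-0.34 to 0.01), Igfbp2 (-5.07 to 0.25), Igfbp4 (-0.29 to 0.07) and Igfbp5 (-0.27 to 0.04). Without mouse 138, Igf1r was at 0.16 with DESeq2 and 0.17 with limma voom, and Igfbp2 at 0.25 and 0.16. With no scaling beyond total counts the tissue difference reversed for Igf1r (0.80), Igf2r (0.53) and Igfbp5 (0.84). Igf1r passed between tissues with RLE scaling (-0.48, adjusted p 0.0411), DESeq2 (-0.49) and limma voom (-0.55); the cause was not tested. With the longest transcript as length, Igf1 was at 3.34 CPM per kilobase in muscle and 28.3 in fat. Depth limits Igfbp2 in muscle, at 0 to 4 reads.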
